A study of Mus musculus with 56 samples.

Results

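The genes described here encode the conjugation enzymes of phase II metabolism: the UDP-glucuronosyltransferases of the Ugt1, Ugt2 and Ugt3 families (UGT), the sulfotransferases (SULT) and the cytosolic and mitochondrial glutathione S-transferases of the alpha, mu, pi, theta and kappa classes (GST). They were chosen by gene symbol alone, with pseudogenes left out, which found 61 of the 21935 genes in the table. Of these, 47 had 5 or more reads in 3 or more livers and were tested with the other genes that met the same minimum, 14105 in all: 18 UGT, 11 SULT and 18 GST genes.

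Conjugation is the step by which the liver couples a drug, hormone, bile acid or reactive lipid to a polar group so that it can leave the cell. UGT enzymes attach glucuronic acid from UDP-glucuronic acid, SULT enzymes attach sulfate from the donor PAPS, and GST enzymes attach glutathione to electrophiles. These enzymes are abundant in hepatocytes, and many of their genes are known targets of the nuclear receptors CAR and PXR, of the aryl hydrocarbon receptor or of NRF2, and several differ between male and female mice.

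RNA-seq was performed on livers of 56 male C57BL/6J mice in 7 groups of 8. Chow-fed mice received vehicle. The other 6 groups ate the AMLN diet, rich in fat, fructose and cholesterol, for 36 weeks before treatment, developed obesity with biopsy-verified steatohepatitis (DIO-MASH), and then received daily subcutaneous injections for 8 weeks while the diet went on. They were given vehicle, low-dose zalfermin (0.05 mg/kg), high-dose zalfermin (0.2 mg/kg), low-dose semaglutide (3 µg/kg), high-dose semaglutide (120 µg/kg), or zalfermin and semaglutide together. Zalfermin acts as FGF21, a liver hormone of energy metabolism, and semaglutide activates the receptor for GLP-1. The study's methods give the low dose of each drug for the combination, whereas the design text deposited with the series names the high doses and the sample labels give none, so the combination is described here by the methods. Mice entered the DIO-MASH groups only if a biopsy showed steatosis and fibrosis, so the groups stand for mice selected for disease.

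Each library held between 5228187 and 20885786 reads on genes, with a median of 12206788. Mice are numbered within a group. Hepatocyte markers were abundant in every liver, with summed levels of the 9 measured genes between 74940 and 259500 CPM over all groups, where CPM are the reads of a gene relative to the library size of its mouse, scaled by edgeR's TMM method. Chow mouse 8 stood apart: its mean Spearman correlation with the rest of its group was 0.947, against 0.967 or higher for every other mouse. It held 261 CPM of Sis, 255 CPM of Muc13, 273 CPM of Vil1 and 259 CPM of Krt20, markers of small intestine and gallbladder epithelium that reached at most 0.118, 0.0753, 0.870 and 0 CPM in the other chow mice. Low-dose semaglutide mouse 6, at 0.967, had the next lowest correlation. The study excluded a low-dose semaglutide mouse that the table does not mark, so all 56 mice were kept, and results that rest on either mouse are also given without it.

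The SULT class had the largest relative differences between groups in the summed level of its tested members. SULT transcripts summed to a median of 424 CPM in DIO-MASH vehicle livers, with a range of 339 to 573, and to a median of 1357 CPM in chow-fed livers, with a range of 1024 to 1435. The median was 1115 CPM with high-dose zalfermin, 923 CPM with the combination, 724 CPM with high-dose semaglutide, 686 CPM with low-dose zalfermin and 531 CPM with low-dose semaglutide. Every high-dose zalfermin and combination mouse lay above the highest vehicle mouse. UGT transcripts summed to a median of 4590 CPM in chow-fed and 2809 CPM in vehicle livers. The treated groups had medians of 2808 to 3246 CPM, and their ranges overlapped the vehicle range of 2212 to 3185. The highest of these medians, with low-dose semaglutide, lay above every vehicle mouse. GST transcripts summed to a median of 5474 CPM in chow-fed and 3791 CPM in vehicle livers, with medians of 3741 CPM for high-dose zalfermin and 4532 CPM for the combination. These sums are descriptions and were not tested.

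**Figure D1:**
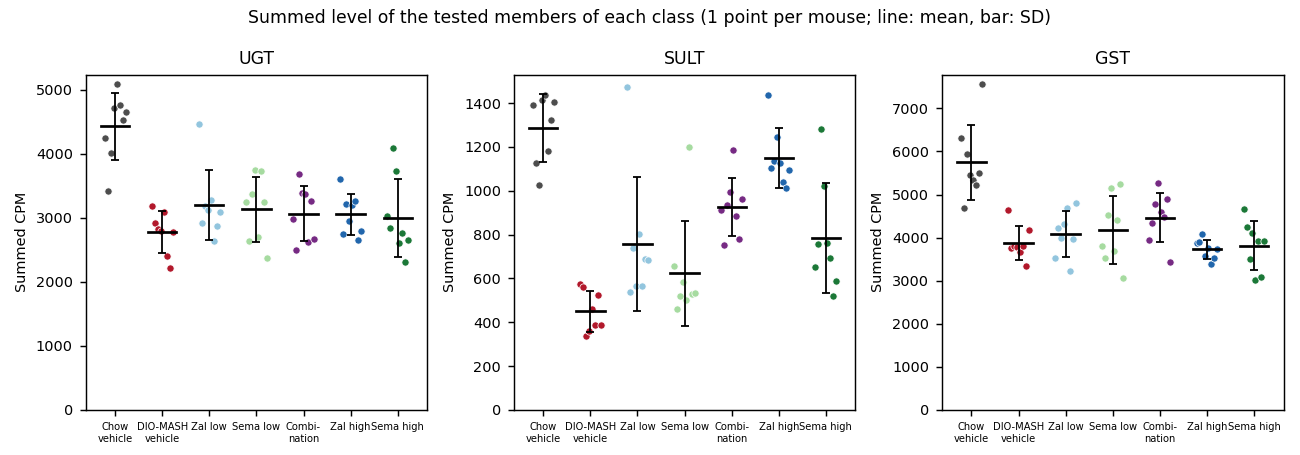
Summed CPM of the tested UGT, SULT and GST genes in each liver, by group, with the mean and SD over 8 mice (linear axes from 0). The SULT sum was 449 ± 93.9 CPM in DIO-MASH vehicle and 1149 ± 136 CPM in high-dose zalfermin livers, while the UGT sum was 3053 ± 323 CPM in high-dose zalfermin against 4430 ± 524 CPM in chow-fed livers.

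A few genes carried most of each class. In vehicle livers Sult1a1, a phenol sulfotransferase, made up 39.7% of the SULT sum, Sult2a8, a bile acid sulfotransferase, 29.7%, and Sult1d1, which sulfates catecholamines, 22.9%. Gstm1 made up 45.5% and Gsta3 22.4% of the GST sum, while Ugt2b36, Ugt2b34 and Ugt2b5 held the largest UGT shares, at 19.2%, 18% and 16.2%. Per kilobase of exon, Gstm1 had the highest mean level in vehicle livers at 1198 CPM per kilobase, followed by Ugt2b36 at 259, Ugt2b5 at 242 and Gsta3 at 200. On the same scale Sult2a8 was the 21st of the 47 genes in vehicle livers, at 40.6 CPM per kilobase, and the 7th in chow-fed livers, at 224. Among the 42 genes with a mean of at least 1 CPM, the coefficient of variation between vehicle mice had a median of 18.8% and ran from 8.28% for Ugt1a1 to 87.8% for Sult5a1.

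Of the 14 genes below the read minimum, Gstt4, Sult1c1, Sult2a1, Sult2a3, Sult2a4, Sult2a5, Sult2a6, Sult3a1, Sult3a2, Sult6b1, Ugt1a8, Ugt2a1 and Ugt2a2 were at or near 0 in these livers. The remaining gene, Sult6b2, had 2323 reads over the whole series, of which 2322 came from chow mouse 8, the liver with the intestinal and gallbladder markers.

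The first comparison asked how conjugation genes differ between healthy and DIO-MASH livers. In chow-fed livers 33 of the 47 genes were higher and 5 lower than in DIO-MASH vehicle livers (adjusted p under 0.05 in edgeR's quasi-likelihood test with Benjamini-Hochberg adjustment over 14105 genes, which applies to all adjusted p-values given here). Of all genes tested, 26.5% were higher and 28.9% lower. The median log2 fold change was 0.76 over the 47 genes and -0.01 over all genes. By class, 14 of 18 UGT, 7 of 11 SULT and 12 of 18 GST genes were higher. Without chow mouse 8, 30 genes were higher and 6 lower, with a median of 0.65, and 34 of the 38 calls were kept. Sorted by the numbers in their labels, the mice were split into 4 runs wherever neighbouring numbers lay more than 100 apart. This cut was chosen here, and the labels do not say what the numbers stand for. All 4 runs hold mice of both groups. Within them 35, 36, 35 and 38 of the 38 called genes kept their direction, where the second run has 1 chow mouse and the last has chow mice 7 and 8 and 1 vehicle mouse.

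Among the SULT genes, Sult2a8 ran from 59.6 through a median of 141 to 249 CPM in vehicle livers and from 488 through 725 to 978 CPM in chow-fed livers. Sult2a8 (ENSMUSG00000030378) lies at chr7:14410686-14446769 on the minus strand of GRCm38. Its ranges in the groups did not overlap, and the log2 fold change was 2.46 ± 0.34 (SE, adjusted p = 2.17e-08). Sult2a7, a gene of the same family expressed far lower, had medians of 2.74 CPM in chow-fed and 0.906 CPM in vehicle livers (2.15 ± 0.36, adjusted p = 1.47e-06). Sult1b1, a sulfotransferase that acts on thyroid hormones and phenols, had medians of 36.6 and 19 CPM (1.25 ± 0.18). Sult1e1, the estrogen sulfotransferase, went the other way, from a chow median of 0.0963 CPM to a vehicle median of 3.03 CPM (-3.72 ± 0.72, adjusted p = 1.89e-05), with 1 chow mouse, at 1.05 CPM, inside the vehicle range of 0.590 to 5.42. Sult4a1 and Sult2a2 were also called lower in chow-fed livers. The Sult2a2 call was lost without any one of 13 mice, each of the 8 chow mice among them (adjusted p of 0.0549 to 0.0942). Sult2a2 had no read in any chow-fed mouse and at most 0.194 CPM in a vehicle mouse, so no fold is given.

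Among the GST genes, the pi class Gstp1 had 221, 492 and 732 CPM (lowest, median, highest) in chow-fed and 130, 177 and 192 CPM in vehicle livers, with no overlap (1.54 ± 0.19, adjusted p = 1.3e-09). Its neighbour Gstp2 was at 4.47 CPM in chow-fed and 0.624 CPM in vehicle livers (2.61 ± 0.39). The alpha class Gsta2 had medians of 49.4 and 11.1 CPM (2.09 ± 0.23), Gsta3, which detoxifies aflatoxin epoxide in mice, 1766 and 847 CPM (1.16 ± 0.12), and Gsta4, which conjugates the lipid peroxidation product 4-hydroxynonenal, 137 and 71.9 CPM (1.08 ± 0.18). The theta class Gstt3 had medians of 74.4 and 17.9 CPM (2.11 ± 0.18, adjusted p = 1.84e-13), the smallest adjusted p of any member. The mu class was split: Gstm4, Gstm6 and Gstm7 were higher in chow-fed livers, Gstm1, Gstm2 and Gstm5 were not called, and Gstm3 was lower, with a chow median of 85.4 CPM and a vehicle median of 233 CPM (-1.20 ± 0.33, adjusted p = 0.00202). The call for Gstm4 was lost without chow mouse 8.

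Among the UGT genes, Ugt1a1, the bilirubin glucuronosyltransferase, had 266, 367 and 408 CPM in chow-fed and 163, 203 and 218 CPM in vehicle livers (0.82 ± 0.10, adjusted p = 1.48e-09), without overlap. Ugt1a9, which glucuronidates phenols and drugs, had medians of 53.1 and 16.9 CPM (1.73 ± 0.27), and Ugt2a3 405 and 150 CPM (1.33 ± 0.16). The abundant Ugt2b36, Ugt2b5 and Ugt2b1 differed less, by 0.55 ± 0.11, 0.72 ± 0.13 and 0.91 ± 0.23. Ugt2b37 was lower in chow-fed livers (-1.62 ± 0.47), with medians of 0.474 and 1.62 CPM. Ugt1a5 (1.40 ± 0.32), Ugt2b34 (0.30 ± 0.09), Ugt2b35, Ugt3a1 (lost without chow mouse 5 or vehicle mouse 7, adjusted p up to 0.0696) and Ugt3a2 were higher in chow-fed livers, as were the sparsely read Ugt1a10 and Sult5a1, the latter with medians of 7.30 and 1.38 CPM (1.76 ± 0.56). Gstm2, Gstm5, Sult1c2, Ugt1a2 and Ugt1a6b were called neither here nor in any treated group against vehicle.

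Chow mouse 8 alone set the result for several genes. Ugt1a7c reached 66.6 CPM in that mouse and at most 2.05 CPM in the other chow mice, and its log2 fold change moved from 2.66 to -0.27 (adjusted p = 0.4) without it. Sult2b1, a cholesterol sulfotransferase of epithelia named here after its values were seen, was at 27.7 CPM in that mouse and at most 0.217 CPM in the others, and its fold change turned from 3.02 to -2.63 (adjusted p = 0.00603). Gsta1 was at 33.1 CPM against at most 1.98 CPM, and it moved from 0.28 to -1.84 (adjusted p = 0.00127). Ugt2b38 was at 29.4 CPM against at most 16.6 CPM in the other chow mice, and it moved from 2.44 to 1.86 and kept its call (adjusted p = 0.00255). Sult1b1, Gsta4, Gsta2 and Gstt3 were also highest of the chow group in chow mouse 8, at 90.95, 298, 96.5 and 127 CPM. The other chow mice reached at most 48.8, 183, 58.7 and 89.4 CPM. The fold changes given above for these genes include chow mouse 8. For each of them all 8 chow mice lay above the highest vehicle mouse.

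The hepatocyte markers moved with this comparison: all 9 were higher in chow-fed livers, and their sum had a median of 181200 CPM against 85430 CPM in vehicle livers, with ranges of 165900 to 259500 and 74940 to 96210. All 7 T cell markers, 8 of 10 stellate cell markers and 8 of 9 markers of monocyte-derived macrophages were lower in chow-fed livers. The stellate sum was 185 to 315 CPM in chow-fed and 1099 to 1886 CPM in vehicle livers, and the macrophage sum was 77.7 to 219 CPM and 611 to 1110 CPM. Their part in the results for conjugation genes was not tested, and in whole tissue fewer hepatocytes cannot be told apart from less of a transcript per hepatocyte.

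**Figure D2:**
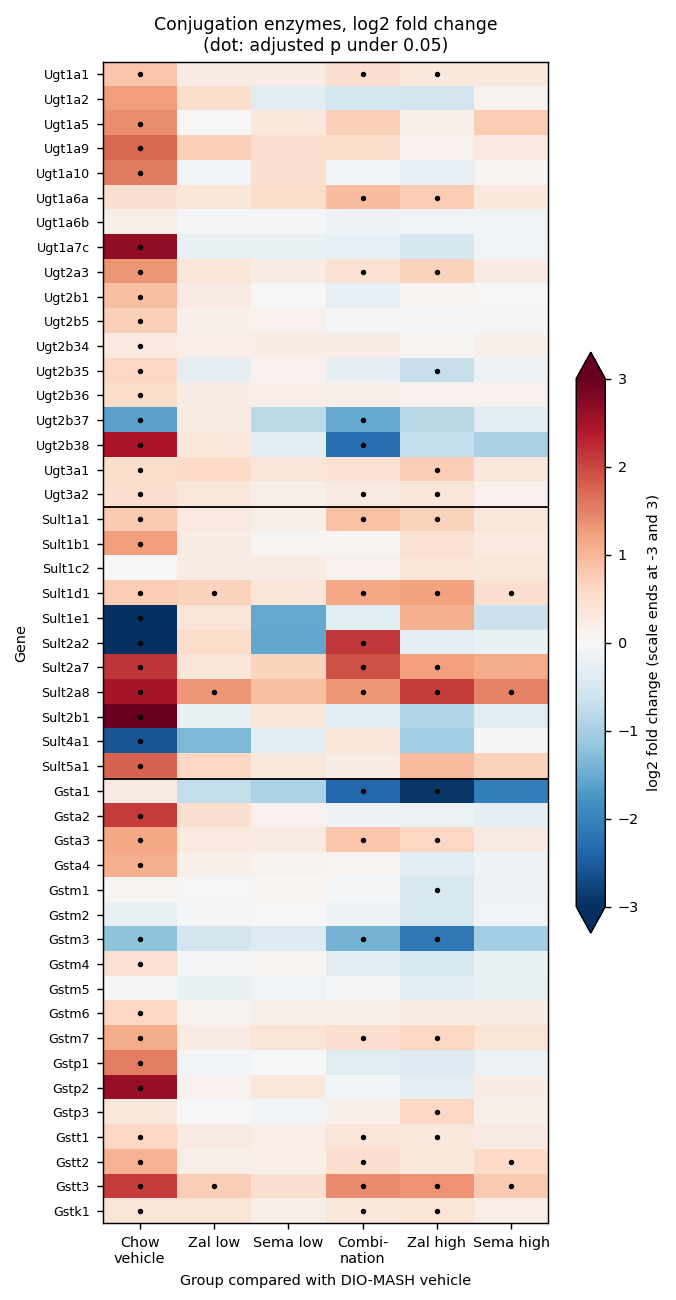
Log2 fold change of the 47 tested genes (rows, by class and family) in each group against DIO-MASH vehicle (columns), red for higher and blue for lower, with a dot where the adjusted p was under 0.05. The chow column has 38 dots, the combination and high-dose zalfermin columns 19 each, high-dose semaglutide 4, low-dose zalfermin 3 and low-dose semaglutide 0.

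High-dose zalfermin was compared with DIO-MASH vehicle to see which of these genes differed with the FGF21 analog. The study reported weight loss against vehicle in every treated group, largest with both high doses and the combination. Body weight was not in the fit, so its part in the treatment results was not tested. With it 15 genes were higher and 4 lower, against 8.54% and 8.68% of all genes tested. With the combination 15 were also higher and 4 lower, against 10% and 10.9% of all genes. The median log2 fold change over the 47 genes was 0.13 with high-dose zalfermin and 0.14 with the combination and -0.02 and -0.03 over all genes. Since the groups share their vehicle mice, their values are given side by side. Within the runs of sample numbers, 19, 19 and 19 of the 19 calls kept their direction with high-dose zalfermin, and 19, 18 and 17 with the combination, where Sult2a2, Gstt2 and Ugt2b37 did not keep it in a run.

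Of the 11 tested SULT genes, Sult2a8, Sult1d1, Sult1a1 and Sult2a7 were called higher in both groups. Sult1b1, Sult1c2, Sult1e1, Sult2b1, Sult4a1 and Sult5a1 were called in neither. Sult2a8 ran from 436 through 565 to 725 CPM with high-dose zalfermin, above every vehicle mouse and with 7 of 8 mice inside the chow range (2.10 ± 0.33, adjusted p = 5.63e-06). With the combination it ran from 181 through 313 to 552 CPM, and 5 of 8 mice lay above the highest vehicle mouse (1.30 ± 0.32, adjusted p = 0.00286). Sult1d1 had a vehicle range of 80.5 to 127 CPM and ran from 194 through 249 to 288 CPM with high-dose zalfermin (1.22 ± 0.14, adjusted p = 3.27e-09) and from 189 through 232 to 307 CPM with the combination (1.16 ± 0.13, adjusted p = 1.1e-08), with no overlap in either case. Sult1a1 had medians of 296 CPM with high-dose zalfermin and 313 CPM with the combination against 180 CPM in vehicle livers (0.68 ± 0.15 and 0.88 ± 0.15), and 6 and 7 of 8 mice lay above the highest vehicle mouse, at 249 CPM. Sult2a7 had medians of 2.01 and 2.94 CPM against 0.906 CPM (1.24 ± 0.37 and 1.92 ± 0.36). Sult2a2 is counted among the 15, but it had 5 or more reads in only 4 of the 56 mice, 3 of them combination mice, so it met the read minimum through the group in which it was high, and its highest mouse had 1.02 CPM. Leaving out any one of 6 mice lost its call (adjusted p up to 0.1).

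**Figure D3:**
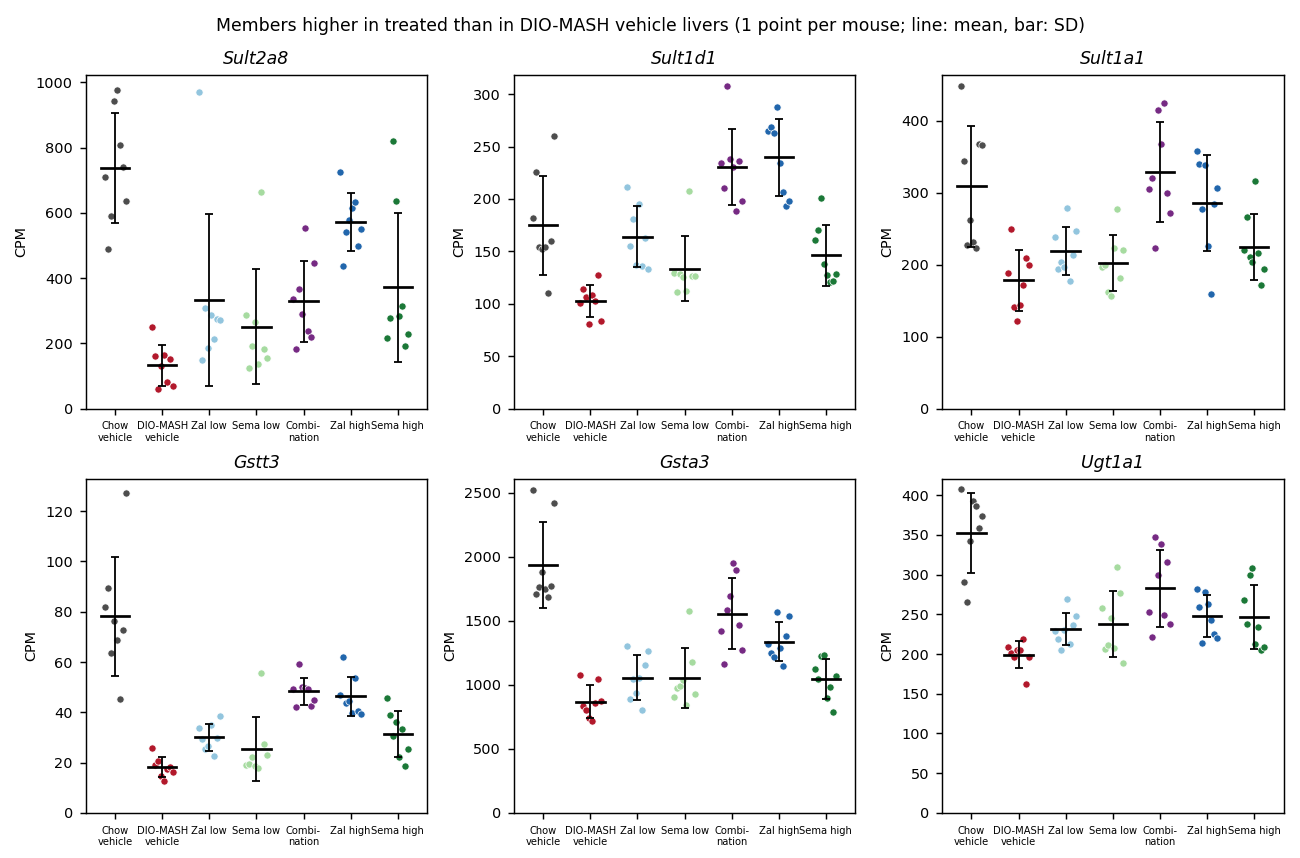
CPM of 6 genes that were higher in treated livers, 1 point per mouse with the mean and SD of 8 mice (linear axes from 0). For Sult1d1, all 8 high-dose zalfermin mice (194 to 288 CPM) and all 8 combination mice (189 to 307 CPM) lay above the vehicle range of 80.5 to 127 CPM, while for Sult2a8 the highest low-dose zalfermin mouse was at 969 CPM and the next at 310 CPM, and the highest low-dose semaglutide mouse at 665 CPM and the next at 286 CPM.

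Among the GST genes, Gstt3 ran from 39.3 through 44.1 to 62.1 CPM with high-dose zalfermin and from 42.2 through 49.3 to 59.1 CPM with the combination, against 12.5 to 25.7 CPM in vehicle livers (1.35 ± 0.18 and 1.41 ± 0.18, adjusted p = 2.97e-07 and 8.8e-08). Gsta3 ran from 1148 through 1306 to 1567 CPM and from 1163 through 1526 to 1949 CPM, above the vehicle range of 718 to 1078 CPM in both groups (0.62 ± 0.12 and 0.84 ± 0.12, adjusted p = 0.000104 and 4.56e-07). Gstm7, Gstt1 and Gstk1, a kappa class enzyme of mitochondria and peroxisomes, were also called in both groups, with log2 fold changes of 0.31 to 0.63. Gstt2 was called with the combination (0.50 ± 0.17), and Gstp3 with high-dose zalfermin (0.63 ± 0.18). The Gstt2 call was lost without any one of 3 mice (vehicle mouse 8, combination mouse 2 or 4, adjusted p up to 0.0863), as was the Gstt1 call with high-dose zalfermin (vehicle mouse 3, zalfermin mouse 2 or 3, adjusted p up to 0.0574).

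The called UGT increases had log2 fold changes of 0.28 to 0.94 with high-dose zalfermin and the combination. Ugt1a1 had medians of 251 CPM with high-dose zalfermin and 276 CPM with the combination against 203 CPM in vehicle livers (0.32 ± 0.10 and 0.50 ± 0.10). Ugt2a3 had medians of 256 and 195 CPM against 150 CPM (0.70 ± 0.16 and 0.45 ± 0.16). Ugt3a2, of a family that uses other sugar donors than glucuronic acid, differed by 0.36 ± 0.10 and 0.28 ± 0.10, and Ugt1a6a, a phenol glucuronosyltransferase with medians of 3.42 and 3.41 CPM against 1.79 CPM, by 0.76 ± 0.27 and 0.94 ± 0.27. Ugt3a1 was called with high-dose zalfermin alone (0.73 ± 0.19, against 0.45 ± 0.19 and an adjusted p of 0.0868 with the combination). Several of these calls lay near the threshold. Of the 16 mice of each comparison, leaving out any one of 10 lost the combination call of Ugt3a2 (adjusted p up to 0.0976), any one of 9 that of Ugt2a3 (up to 0.137), and any one of 10 the high-dose zalfermin call of Ugt1a6a (up to 0.102). The high-dose zalfermin call of Ugt1a1 was lost without vehicle mouse 7 (adjusted p = 0.0554).

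Promoter sequences of 4 genes are shown to set members that were higher with treatment beside one that was not: Gsta3, Sult1d1 and Gstt3, and Gstp1. Each is the stretch of 250 bases before a RefSeq start site in GRCm38.p6, written 5′ to 3′ on the strand of the gene. Gsta3 is at chr1:21240335-21240584 (plus strand), Sult1d1 at chr5:87569007-87569256 (minus strand), Gstt3 at chr10:75781415-75781664 (minus strand) and Gstp1 at chr19:4037913-4038162 (minus strand). Capitals mark a match to the antioxidant response element core TGACNNNGC in Gsta3, 121 bases before the start, and to the xenobiotic response element core TNGCGTG, on the opposite strand, in Sult1d1, 47 bases before the start.
Gsta3: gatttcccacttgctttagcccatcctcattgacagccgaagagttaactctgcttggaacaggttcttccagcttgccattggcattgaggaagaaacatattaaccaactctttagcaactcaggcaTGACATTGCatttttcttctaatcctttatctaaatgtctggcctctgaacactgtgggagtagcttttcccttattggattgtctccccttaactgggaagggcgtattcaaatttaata
Sult1d1: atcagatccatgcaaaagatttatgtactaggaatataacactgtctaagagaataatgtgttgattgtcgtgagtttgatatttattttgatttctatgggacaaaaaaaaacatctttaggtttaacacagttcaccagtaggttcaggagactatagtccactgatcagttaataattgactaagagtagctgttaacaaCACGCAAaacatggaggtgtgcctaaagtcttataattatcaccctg
Gstt3: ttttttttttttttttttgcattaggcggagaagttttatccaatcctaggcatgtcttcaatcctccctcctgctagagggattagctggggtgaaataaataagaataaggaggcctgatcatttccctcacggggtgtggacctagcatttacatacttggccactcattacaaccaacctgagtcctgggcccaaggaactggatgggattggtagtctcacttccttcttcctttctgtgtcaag
Gstp1: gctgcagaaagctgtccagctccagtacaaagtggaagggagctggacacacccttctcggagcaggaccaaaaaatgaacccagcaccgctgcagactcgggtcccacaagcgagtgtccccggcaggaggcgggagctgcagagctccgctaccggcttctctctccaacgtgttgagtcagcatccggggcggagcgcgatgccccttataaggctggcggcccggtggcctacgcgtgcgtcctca
Gstt3 and Gstp1 hold neither set of letters in these windows. The Gstp1 window does hold tgagtcagc, which is TGACNNNGC with G for the C after TGA, and the search did not count it. Of the 40 tested members with a promoter in the table, 3 (7.5%) held TGACNNNGC, namely Gsta3, Gstm5 and Gstm7, against 11.5% of 27025 genes, and 3 (7.5%) held TNGCGTG, namely Gsta2, Sult1d1 and Ugt1a5, against 4.76%. The search covered both strands, and the motifs do not overlap. Such letters are common, so a match describes the sequence and does not mark a bound site. Gsta3, Gstm7 and Sult1d1 were called higher with the combination and with high-dose zalfermin. Gstm5, Gsta2 and Ugt1a5 were not called in any treated group.

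Fewer genes were lower with treatment. Gstm3 had a vehicle median of 233 CPM and ran from 22.7 through 51.3 to 74.2 CPM with high-dose zalfermin, below every vehicle mouse (-2.15 ± 0.34, adjusted p = 7.02e-06). It ran from 39.3 through 70.1 to 142 CPM with the combination (-1.42 ± 0.34, adjusted p = 0.00156), where 6 of 8 mice lay below the lowest vehicle mouse. Gsta1, an alpha class gene expressed at 2.32 to 6.64 CPM in vehicle livers, was at no more than 1.06 CPM with high-dose zalfermin and 1.61 CPM with the combination, without overlap (-2.92 ± 0.70 and -2.36 ± 0.66). High-dose zalfermin also lowered Gstm1 (-0.49 ± 0.15), the most abundant GST transcript, and Ugt2b35 (-0.68 ± 0.14, adjusted p = 0.000203), whose medians were 121 and 211 CPM. The combination lowered Ugt2b38 (-2.26 ± 0.70) and Ugt2b37 (-1.53 ± 0.46), both under 4 CPM in every vehicle mouse, and the Ugt2b37 call was lost without vehicle mouse 2 (adjusted p = 0.0539).

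**Figure D4:**
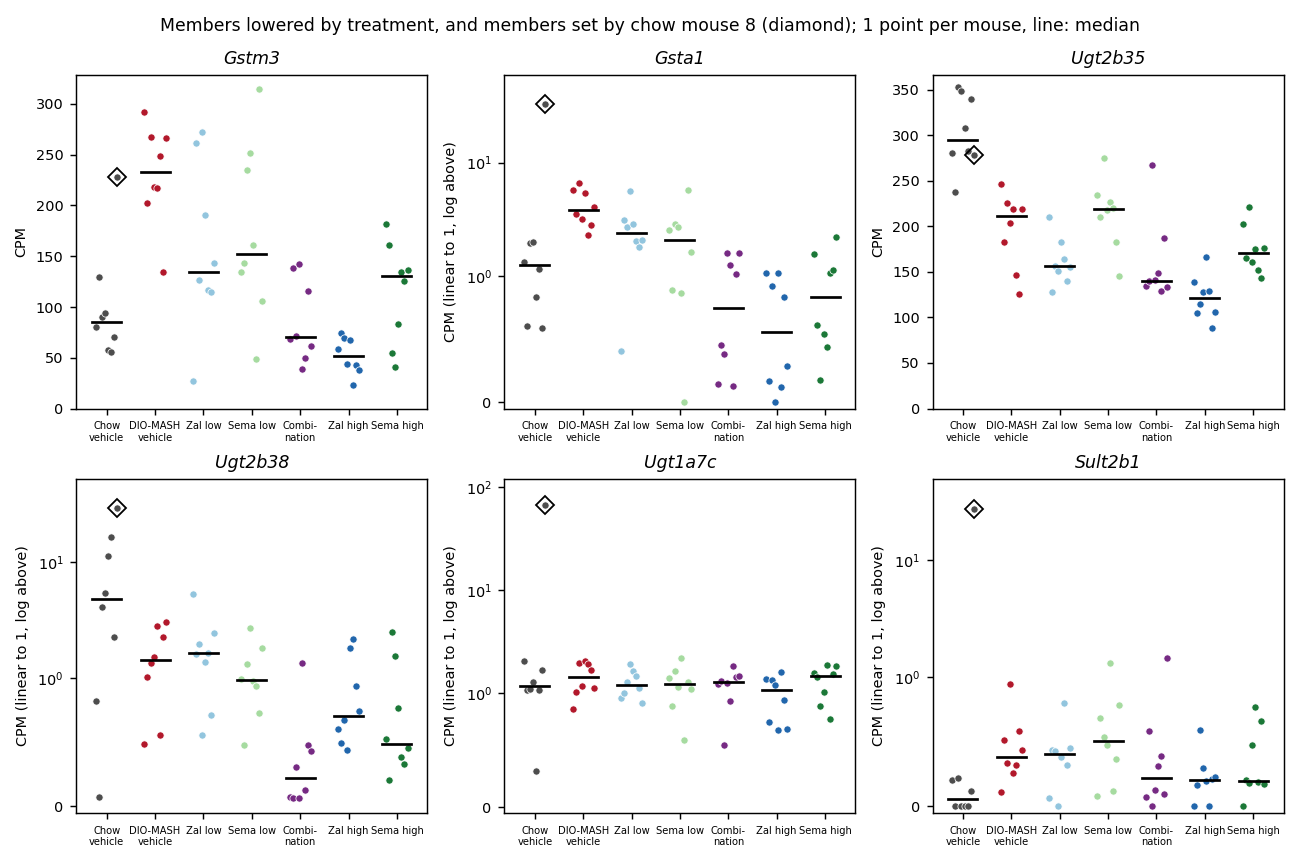
CPM of genes lowered by treatment and of genes set by chow mouse 8 (open diamond), 1 point per mouse with the group median. Gstm3 and Ugt2b35 have linear axes from 0, and the other axes are linear to 1 CPM and logarithmic above. Gstm3 was at 22.7 to 74.2 CPM with high-dose zalfermin against 134 to 292 CPM in vehicle livers, and chow mouse 8 held 66.6 CPM of Ugt1a7c and 27.7 CPM of Sult2b1, each far above all other mice.

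Several genes that were low in DIO-MASH vehicle livers were called with none of the treatments. Gstp1 had medians of 177 CPM in vehicle, 127 CPM in high-dose zalfermin and 137 CPM in combination livers against 492 CPM in chow-fed livers, and Gsta2 had 11.1, 10.2 and 11.4 CPM against 49.4 CPM. Gsta4, Sult1b1, Ugt1a9, Ugt2b1, Ugt2b5 and Ugt2b36 were uncalled in every treated group as well. An uncalled gene is not shown to be unchanged: for Gstp1 the log2 fold change was -0.39 ± 0.18 with high-dose zalfermin.

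**Figure D5:**
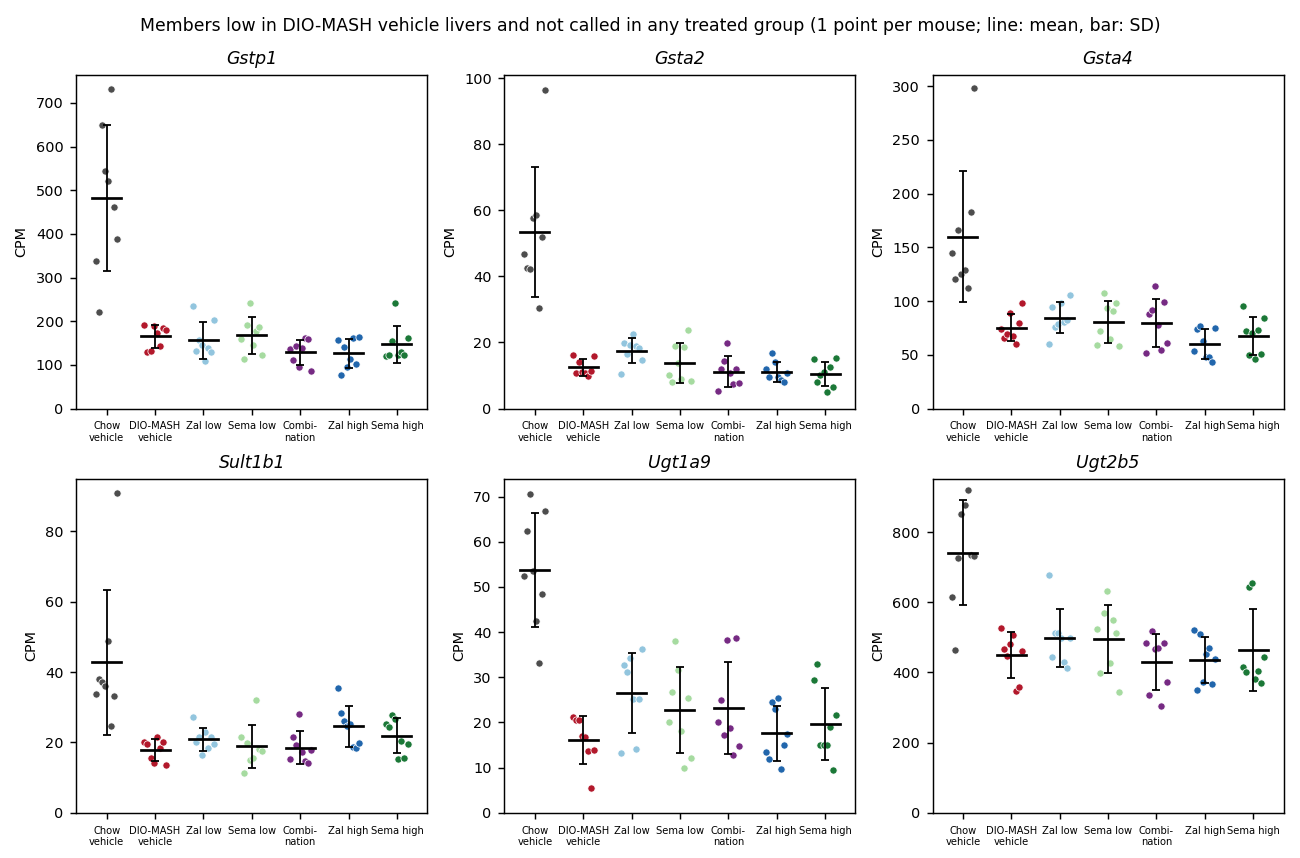
CPM of 6 genes that were low in DIO-MASH vehicle livers and not called in any treated group, 1 point per mouse with the mean and SD of 8 mice (linear axes from 0). Gstp1 was at 221 to 732 CPM in chow-fed livers, 130 to 192 CPM in vehicle livers and at most 243 CPM in any treated liver.

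Comparisons of treated with chow-fed mice were added after the data were seen. With the combination 31 genes differed from chow, 4 higher and 27 lower, against 17.4% and 15.0% of all genes. High-dose zalfermin gave 31, with 2 higher and 29 lower (19.7% and 17.6% of all genes), and high-dose semaglutide gave 32, with 3 higher and 29 lower (21.3% and 18.6%). The largest shortfalls with the combination among genes above 10 CPM were Gsta2 (-2.24 ± 0.24), Gstp1 (-1.90 ± 0.19), Sult1b1 (-1.20 ± 0.18) and Ugt1a9 (-1.20 ± 0.26). These values include chow mouse 8, the highest chow mouse for Gsta2 and Sult1b1. Sult1d1 was above chow level with the combination (0.40 ± 0.13, adjusted p = 0.0173) and with high-dose zalfermin (0.46 ± 0.13, adjusted p = 0.00579). The first of these calls was lost without chow mouse 6 (0.32, adjusted p = 0.051) or combination mouse 3 (0.33, adjusted p = 0.0558). Without chow mouse 8 the counts were 5 higher and 23 lower, 3 and 25, and 4 and 26.

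High-dose semaglutide increased 4 genes and lowered 0, against 1.43% and 1% of all genes tested: Sult2a8 (1.48 ± 0.33, adjusted p = 0.00993), Gstt3 (0.79 ± 0.18, adjusted p = 0.0129), Gstt2 (0.59 ± 0.17, adjusted p = 0.0454) and Sult1d1 (0.50 ± 0.13, adjusted p = 0.0279). Sult2a8 ran from 192 through 282 to 820 CPM, and 5 of 8 mice lay above the highest vehicle mouse. Sult1d1 ran from 121 through 134 to 201 CPM, with 6 of 8 mice above it. All 4 kept their direction in each run of sample numbers. Gsta1 had a median of 0.833 CPM, and all 8 mice lay below the lowest vehicle mouse, but its adjusted p of 0.0595 missed the threshold (-2.08 ± 0.63). Leaving out single mice gave 1 to 7 called genes, with 1 left without high-dose semaglutide mouse 3 and 7 called without its mouse 7. The Gstt2 call was lost without any one of 11 mice, that of Sult1d1 without any one of 6 and that of Sult2a8 without mouse 3 (adjusted p up to 0.148, 0.122 and 0.057).

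Low-dose zalfermin increased Sult1d1 (0.67 ± 0.13, adjusted p = 0.0117), Gstt3 (0.73 ± 0.18, adjusted p = 0.0429) and Sult2a8 (1.32 ± 0.32, adjusted p = 0.0429), and no gene was lower, against 0.418% and 0.0496% of all genes tested. Sult1d1 ran from 134 through 159 to 212 CPM, above every vehicle mouse. Gstt3 ran from 22.5 through 29.6 to 38.5 CPM, with 6 of 8 mice above the highest vehicle mouse. Sult2a8 ran from 150 through 272 to 969 CPM, and the highest mouse, mouse 1, was set far from the others. Without mouse 1 no gene was called, with Sult1d1 at 0.61 (adjusted p = 0.0767) and Sult2a8 at 0.86 (adjusted p = 0.37). Leaving out any one of 11 other mice left 1 call, for Sult1d1.

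Low-dose semaglutide gave 0 calls among these genes and 0% among all genes in either direction. DESeq2 also called 0, and 9 of the 47 genes, with 1222 of all genes, had an unadjusted p under 0.05 in edgeR. Mouse 6 lay above the rest of its group for 18 of the 47 genes and below it for 8, with Sult2a8 at 665 CPM, Sult1d1 at 207 CPM and Gstt3 at 55.7 CPM, where the other mice of the group reached no more than 286, 129 and 27.5 CPM. Without it, 0 genes were called again, and the median log2 fold change over the 47 genes fell from 0.18 to 0.11.

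The direct comparisons of treated groups asked what the combination added to each low dose. Against low-dose zalfermin, 5 genes were higher and 2 lower with the combination (3.27% and 3.35% of all genes): Sult2a7 (1.56 ± 0.35), Gstt3 (0.69 ± 0.18), Sult1a1 (0.59 ± 0.15), Gsta3 (0.56 ± 0.12) and Sult1d1 (0.49 ± 0.13) were higher, and Ugt2b38 (-2.56 ± 0.69) and Ugt2b37 (-1.79 ± 0.45) were lower. Against low-dose semaglutide, 6 were called higher and 0 lower (1.93% and 2.28% of all genes): Sult2a7 (1.24 ± 0.34), Gstt3 (0.94 ± 0.18), Sult1d1 (0.79 ± 0.13), Sult1a1 (0.70 ± 0.15), Gsta3 (0.56 ± 0.12) and Sult2a2, which met the read minimum through the combination mice. The call of Sult2a7 against low-dose semaglutide was lost without any one of 5 mice (adjusted p up to 0.0923), and that of Sult1d1 against low-dose zalfermin without combination mouse 3 (adjusted p = 0.0505). Against high-dose zalfermin, 0 genes were called by edgeR or DESeq2, while edgeR called 0.326% of all genes higher and 0.177% lower. That does not show that the groups act alike. Without adjustment, 11 of the 47 genes had a p under 0.05 in edgeR. This threshold is looser than that of the shares, and the share of all genes at it is not given here. High-dose zalfermin exceeded high-dose semaglutide for 1 gene, Sult1d1 (0.71 ± 0.13, adjusted p = 0.00385), and was lower for 0 (0.135% and 0.312% of all genes). The interaction of the low doses asks whether the combination departs from the sum of the low-dose log2 changes. It gave 0 calls in edgeR and in DESeq2, while edgeR called 0% of all genes higher and 0.0142% lower. At the looser threshold of an unadjusted p under 0.05 in edgeR, 5 of the 47 genes passed. The share of all genes at that threshold is again not given here.

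Cell markers moved with the treatments too. Of the 9 hepatocyte markers, 8 were higher in combination livers, 8 after high-dose zalfermin and 4 after high-dose semaglutide, with median sums of 128600, 118000 and 112300 CPM against 85430 CPM in vehicle livers. Stellate cell markers were lower for 7 of 10 genes in combination livers (sums of 430 to 877 CPM against 1099 to 1886 CPM in vehicle livers), 3 after high-dose zalfermin (350 to 824 CPM) and 2 after high-dose semaglutide (464 to 1897 CPM). Markers of monocyte-derived macrophages were lower for 4 of 9 genes in combination livers, 5 after high-dose zalfermin and 0 after high-dose semaglutide, with median sums of 408, 453 and 391 CPM against 730 CPM in vehicle livers. Of 6 adipocyte markers, Adipoq, Lep, Plin1 and Retn did not meet the read minimum. The 2 that did, Cfd and Fabp4, had median sums of 9.26, 12.1 and 23.9 CPM against 40.2 CPM. With the other markers missing, these sums do not measure adipocytes. The sinusoidal endothelial markers had medians of 283 to 343 CPM in all DIO-MASH groups. The part of these shifts in the results above was not tested.

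Genes that supply or surround conjugation were taken from lists chosen with earlier results of these data known. Of all genes tested, 26.5% were higher and 28.9% lower in chow-fed livers. The shares were 10% and 10.9% with the combination, and 8.54% and 8.68% with high-dose zalfermin. No list was tested against them. All list counts for chow-fed livers, here and below, include chow mouse 8, and only Ggt1 is also given without it. Of 16 genes for donor and cofactor supply, 7 were higher and 2 lower in chow-fed livers, 5 and 2 with the combination, and 5 and 5 with high-dose zalfermin. Papss2, which makes the sulfate donor PAPS, was higher in chow-fed livers (1.47 ± 0.19) and with the combination (0.76 ± 0.19), as was Cth, which makes cysteine for glutathione (2.12 ± 0.19 and 0.90 ± 0.19). Of 22 conjugation enzymes outside the symbol rule, 13 were higher and 1 lower in chow-fed livers, 9 and 2 with the combination, and 11 and 1 with high-dose zalfermin, led by the methyltransferase Gnmt (2.41 ± 0.19 in chow-fed livers and 1.48 ± 0.18 with the combination). Of 12 genes for export and deconjugation of conjugates, 2 were higher and 6 lower in chow-fed livers, 1 and 5 with the combination, and 1 and 6 with high-dose zalfermin, one of the higher chow values, Ggt1, turning from 5.12 to -1.60 (adjusted p = 0.0575) without chow mouse 8. The lower genes included the efflux pumps Abcb1b (-0.87 ± 0.22) and Abcg2 (-0.68 ± 0.13) with the combination.

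The known regulators and their other targets were read in the same way, beside the same shares of all genes. With high-dose semaglutide these shares were 1.43% higher and 1% lower. Of 22 receptors and regulators, 11 were higher and 1 lower in chow-fed livers and 7 and 0 with the combination, including Nr1i3, which encodes CAR (1.07 ± 0.17 and 0.68 ± 0.17). Of 19 tested CAR and PXR targets, 14 were higher and 2 lower in chow-fed livers, 10 and 2 with the combination, 11 and 4 with high-dose zalfermin, and 4 and 0 with high-dose semaglutide. Cyp2c37 stood at 2.94 ± 0.37 in chow-fed livers and 2.58 ± 0.37 with the combination. Of 20 NRF2 targets, 3 were higher and 6 lower in chow-fed livers, 2 and 6 with the combination, and 0 and 8 with high-dose zalfermin, among them Cbr3 (-1.79 ± 0.35 in chow-fed livers and -1.56 ± 0.34 with the combination) and Srxn1 (-0.99 ± 0.17 and -0.90 ± 0.17). Of 14 PPARA targets, 0 were higher and 5 lower in chow-fed livers, and 5 and 2 were with the combination. The counts of NRF2 and PPARA targets lower in chow-fed livers lay near the share of all genes lower there, 28.9%.

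Sex-biased liver genes were included because several conjugation enzymes are known to differ between the sexes. Some Sult2a genes are higher in female and Gstp1 in male mouse liver. Whether Sult2a8 differs between the sexes was not tested. Of 16 tested female-biased genes outside the rule, the combination increased 12, high-dose zalfermin 10 and high-dose semaglutide 3, and none of these groups lowered any. Of all genes, 10%, 8.54% and 1.43% were higher in these groups. In chow-fed livers 6 were higher and 2 lower, against 26.5% and 28.9% of all genes. The median log2 fold change of this list was 2.23 with the combination, against 0.14 for the 47 conjugation genes and -0.03 for all genes. Of 19 male-biased genes, 0 were higher and 6 lower with the combination, 3 and 2 with high-dose zalfermin, and 12 and 1 in chow-fed livers. Some genes stand in several lists, as Cyp2b9 does among the CAR and PXR targets. Examples with the combination were Cyp2b9 (4.02 ± 0.78), Slc22a26 (3.80 ± 0.51) and Cyp4a12a (-3.19 ± 0.40). All mice were male.

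Many members are close copies of each other, which bears on how far their values can be separated, since how the counting treated reads that fit several genes is not stated. All Ugt1a genes share their last exons on chromosome 1, and 51.2% to 74.8% of their stretches of 75 bases occur in other genes. For Gsta1 the share is 84.7%, for Gstp2 50.1%, for Sult2a2 47.2% and for Gsta2 36.6%. It is 30.4% for Ugt2b5, 29.2% for Gstp1, 28% for Ugt2b38, 21.6% for Gstm3 and 11.65% for Gstm1. Ugt2b5 and Ugt2b38 share most of these stretches with each other. How far the sharing affects the counts was not tested. Sult1d1, Sult2a7, Gsta3, Gstm7 and Ugt2b35 share 0% and Sult2a8 0.21%, and Gstt3 shares 11.5%.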

How the data were processed

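Liver RNA of 56 mice was sequenced by the authors (stranded mRNA libraries, NextSeq 500). Their methods name STAR and GRCm38, while the submitters' processing notes list Trim Galore 0.6.4, Salmon 1.9.0 and GRCm38. The program that made the gene counts, and its use of strand, are not given in the sources used here. The deposited table holds raw read counts per gene, not normalized, for 21935 genes with 0 columns of other samples. Groups came from the sample labels, and each sample is a separate mouse.

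The read minimum (5 reads in at least 3 mice) left 14105 genes. Their counts were modelled with edgeR 4.0.16 in R 4.3.3 (TMM, 1 quasi-likelihood fit of all 7 groups, two-sided F tests, Benjamini-Hochberg adjustment, threshold 0.05). CPM values used TMM library sizes. On simulated counts with 200 genes changed 2-fold, the same steps recovered 89% of them among 14009 genes in the comparison of the combination with DIO-MASH vehicle. Of the calls, 4.3% were false. The changed genes had vehicle means above 1 CPM and all others were left unchanged. The 89% therefore does not carry over to rarer genes, smaller changes or comparisons with many changed genes. DESeq2 1.42.0, its size factors, other filters, a term for runs of neighbouring sample numbers, fitting the compared groups alone, and each mouse left out were the alternatives. Promoters are RefSeq's, and gene positions are from GENCODE M21.

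The genes and lists were chosen with earlier results of these data known. Values are given by rule for up to 6 called genes per direction in each comparison with DIO-MASH vehicle (largest fold changes, mean of 1 CPM or more), the most abundant gene of each family, genes called between treated groups, and up to 3 called genes per list in the chow and combination comparisons. Gsta2, Gsta4, Gstm7, Gstp3, Sult1b1, Sult2b1, Sult6b2, Ugt1a5, Ugt1a9, Ugt2b1, Ugt2b34 and Ugt2b5 have values beyond it and were chosen after these were seen.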

Additional observations from a re-analysis of the deposited data

Results flagged for a closer look

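Of 196 pairs of a gene named by rule and a group, 18 had a mouse whose gap to its nearest neighbour on the log2 scale, relative to the range of the group, passed Dixon's 95% critical value for 8 values. Chance would pass about 9.8 of 196, so single flags carry little weight. They gathered in a few mice.

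Low-dose zalfermin mouse 1 was the highest of its group for Sult2a8 (969 CPM), Ugt3a2 (529 CPM) and Ugt2a3 (350 CPM) and the lowest for Gstm3 (27.6 CPM) and Gsta1 (0.407 CPM). Low-dose semaglutide mouse 6 was the highest for Gstt3 (55.7 CPM), Sult1d1 (207 CPM) and Ugt1a6a (3.75 CPM). DIO-MASH vehicle mouse 7 was the lowest for Gstm1 (1243 CPM), Gstm3 (134 CPM) and Ugt1a1 (163 CPM). Chow mouse 8 was the highest for Ugt1a7c (66.6 CPM) and Gsta1 (33.1 CPM).

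The remaining flags were single ones. High-dose semaglutide mouse 4 was high for Gstp1 (243 CPM) and mouse 7 low for Gstk1 (81.6 CPM). High-dose zalfermin mouse 1 was high for Gstk1 (176 CPM) and mouse 2 for Sult2a2 (0.331 CPM). Chow mouse 2 was high for Sult1e1 (1.05 CPM).

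Sult6b2 lay outside the tested genes and was seen in a single liver: chow mouse 8 held 286 CPM, against at most 0.0612 CPM in the other 55 mice. The same liver held the markers of small intestine and gallbladder epithelium given above. Which tissue the reads came from was not tested.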

How the results depend on the processing

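Counts of called genes stayed within 1.5 times the reported count under every alternative for the chow comparisons, the combination, high-dose zalfermin, and the combination against either low dose. Low-dose zalfermin, with 3 calls, had 5 under DESeq2, which gave Gstt3 no adjusted p, 1 without a read filter, and 0 to 3 when 1 mouse was left out, with 0 without its mouse 1. High-dose semaglutide, with 4, had 7 when only the groups compared were fitted and 1 to 7 when 1 mouse was left out, with 1 without its mouse 3 and 7 without its mouse 7. High-dose zalfermin against high-dose semaglutide, with 1, had 2 under DESeq2, 2 with sample number runs as a covariate, 2 without low-dose semaglutide mouse 6, and 1 to 2 when 1 mouse was left out. Other ranges with 1 mouse left out were 35 to 39 for chow, 15 to 19 for the combination, 17 to 20 for high-dose zalfermin, and 6 to 9 and 5 to 8 for the combination against low-dose zalfermin and low-dose semaglutide. Directions turned for genes that chow mouse 8 set: without it, Gsta1 was -1.84 in chow-fed livers (range with 1 mouse left out -1.84 to 0.459), Ugt1a7c was -0.27 (-0.27 to 2.85), and Ugt1a7c was 0.0117 for the combination (-3.11 to 0.0117) and 0.17 for high-dose semaglutide (-2.95 to 0.17) against chow. Under DESeq2, which replaces outlying counts, these 3 Ugt1a7c values were -0.27, 0.0129 and 0.18. Of 2265 values of the genes named by rule under the other alternatives, 36 lost and 17 gained a call, and of 7028 with 1 mouse left out, 149 and 24 did. No paired analysis was possible because the labels give the groups no shared replicate numbers. The runs of sample numbers were fitted as a term instead: 1533 genes, 10 members among them, differed between runs, and the term removed 5 and added 2 calls for the combination against chow, removed 5 and added 4 for high-dose zalfermin against chow, removed 4 and added 2 for high-dose semaglutide against chow, and removed 2 each for chow and the combination against vehicle. Low depth limits Sult2a2, Sult4a1, Ugt1a2 and Ugt1a10, all under 2 CPM in every mouse.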
